A study of Homo sapiens with 18 samples.

Results

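The genes described here are the lncRNAs whose symbol on the array platform is LINC00 followed by 3 digits. The platform gave such a symbol to 282 of 53617 transcript clusters (sets of probes read as a single gene or a part of it), and these stand for 246 genes. A gene with several transcript clusters (29 of the 246) was represented by the one with the highest mean signal over the 18 arrays. No measured difference was used to choose the genes. All 246 symbols are current and are classed as lncRNA in the RefSeq annotation of GRCh38.p14.

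Transcripts named LINC are long RNAs without a recognised open reading frame named for loci that lie between protein-coding genes, though some overlap a gene in later annotation. The number is a catalogue entry and implies no shared sequence, family or function. lncRNAs are typically less abundant than mRNAs and more restricted to particular tissues, and some act on transcription near their own locus while others work as RNA in the nucleus or the cytoplasm. A few loci first catalogued this way were later found to encode small proteins.

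The cells were HCC1806 and HCC1395, long-established lines from triple-negative breast cancers (TNBC). Each line received 15 nM of a negative control GapmeR or of 1 of a pair of GapmeRs directed at the lncRNA *PART1* (GapmeR 1 or GapmeR 2), and Affymetrix Human Gene 2.0 ST arrays measured the RNA taken after 48 h. A GapmeR is an antisense oligonucleotide with a DNA centre through which RNase H cleaves the RNA it binds. Every group, the controls included, was therefore exposed to an oligonucleotide and to transfection. Each line with each oligonucleotide was measured on 3 arrays, which gives 6 groups and 18 arrays. The values are RMA log2 signals. The replicates carry numbers, but no label tells if the cultures were separate. The spread that the p-values measure is therefore only that between these arrays and may be technical.

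The arrays were alike in scale, with medians between 4.04 and 4.13 and correlations between arrays of a group between 0.982 and 0.987. Marker genes were compared between the lines, which shows that the lines differ but does not identify either. *EPCAM*, an epithelial adhesion molecule, had a mean log2 signal of 11.18 in HCC1806 and 4.75 in HCC1395 control arrays, and *VIM*, the intermediate filament of mesenchymal cells, had 5.12 and 9.31. In HCC1395, *PART1* itself read 5.45, 5.76 and 5.61 in the controls. GapmeR 1 arrays read 4.93, 4.72 and 5.36 and GapmeR 2 arrays 4.86, 5.29 and 4.70, so all 6 lay under the controls. In HCC1806 the controls read 3.88, 3.69 and 3.94. Arrays labelled GapmeR 1 read 4.04, 3.68 and 4.07 and arrays labelled GapmeR 2 read 4.03, 4.47 and 3.87. The groups overlapped near the array median, and the *PART1* signal was not lower with the GapmeRs. A signal at this level may miss a fall in the RNA. Directions in HCC1806 are those of the arrays as labelled. In bulk RNA, fewer cells that carry a transcript and less of it per cell cannot be told apart.

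Most of the LINC00 transcripts gave low signals. Their median, as the mean over the 18 arrays, was a log2 signal of 3.44, against 4.10 for all transcript clusters. On all 3 control arrays, 62 of 246 (25.2%) lay above the array median in HCC1806 and 62 (25.2%) in HCC1395, with 52 above it in both lines and 72 in at least 1. Against the median of the transcript clusters that carry a symbol, the counts were 21 and 29. Among all transcript clusters the shares were 45.9% and 46.0%. Of 481 antisense lncRNAs, whose symbols end in AS and a number, 39.5% and 43.5% were above the median, and of 11916 protein-coding genes 74.3% and 73.4%. A signal also depends on the probes of its transcript cluster, so these positions describe signal on the array and do not rank abundance between genes. A signal above the median need not mean that the transcript is present. LINC00278, a gene of the Y chromosome, had control means of 5.01 in HCC1806 and 4.74 in HCC1395. Its nearest measured protein-coding gene, *SRY*, had 1.78 and 1.84. Whether the LINC00278 signal comes from its transcript was not tested.

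The highest signals belonged to LINC00987, LINC00999 and LINC00933, with control means of 11.40, 9.0 and 8.37 in HCC1806 and 10.91, 9.79 and 9.54 in HCC1395. These were also the genes whose transcript clusters disagreed most. The means of the brightest and the dimmest transcript cluster differed by 6.65 on the log2 scale for LINC00987, by 4.96 for LINC00999 (4 transcript clusters) and by 5.21 for LINC00933. The second transcript cluster of LINC00987 was at 4.73 in HCC1806 and 4.34 in HCC1395, close to the array median, so which of these signals stands for the transcript is not known here. Other genes with high signals in both lines were LINC00294 (7.66 and 6.97), LINC00674 (7.57 and 8.22), LINC00667 (6.95 and 7.22) and LINC00265 (6.90 and 7.89). All 4 were above the median on every control array. The brightest and the dimmest transcript cluster differed by 3.16 for LINC00265 and by 1.41 for LINC00674.

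**Figure D1:**
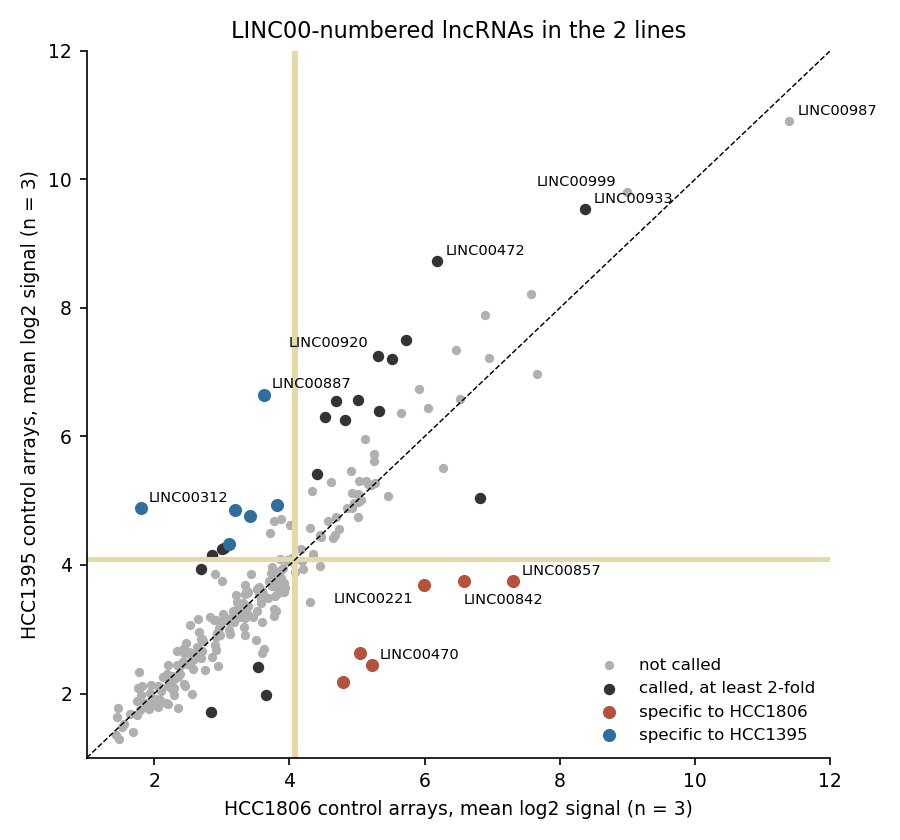
Mean log2 signal of the 246 LINC00 transcripts on the control arrays of HCC1806 (x axis) and HCC1395 (y axis), 3 arrays each. Bands mark the array medians of 4.04 to 4.13 and the dashed line equal signal. Most transcripts crowd below both bands near the dashed line, 12 coloured points lie above the median in 1 line only and differ at least 2-fold, and LINC00987 is the brightest in both lines.

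The first comparison asked which LINC00 transcripts differ between the lines without *PART1* GapmeR. At an adjusted p under 0.05 (limma, Benjamini-Hochberg over all transcript clusters) and at least 2-fold, 31 of 246 (12.6%) differed between the control arrays, and 12.9% of all transcript clusters did so. Of these, 10 were higher in HCC1806, where the background was 6.39%, and 21 were higher in HCC1395, where it was 6.5%. Among the 72 that were above the median in at least 1 line, 24 (33.3%) were called, beside 23.2% of all transcript clusters above it. That filter used the same control arrays, and a transcript high in 1 line alone passed it through that line. Nothing is drawn from the excess. At an adjusted p under 0.05 without a fold limit the count was 61, with 29.3% of all transcript clusters called. The overall share of called LINC00 transcripts was therefore close to that of the array.

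Line-specific transcripts were defined as those called in this comparison that were above the array median on all 3 control arrays of 1 line and on none of the other. There were 12 of 246 (4.88%), with a background of 2.54%. HCC1806 held LINC00857, LINC00842, LINC00470, LINC00648, LINC00520 and LINC00221 (background 1.35%), and HCC1395 held LINC00312, LINC00887, LINC00339, LINC00968, LINC00685 and LINC00942 (background 1.19%). The RefSeq promoter windows of the largest differences in each direction, from 250 bases before to 50 after the start of the gene, are shown 5′ to 3′ to let their base composition be compared, with each CG dinucleotide in capitals. In GRCh38.p14 the window of LINC00857 is chr10:80207460-80207759 on the plus strand, that of LINC00842 chr10:46398112-46398411 on the plus strand, that of LINC00312 chr3:8571532-8571831 on the plus strand and that of LINC00887 chr3:194312755-194313054 on the minus strand.
LINC00857: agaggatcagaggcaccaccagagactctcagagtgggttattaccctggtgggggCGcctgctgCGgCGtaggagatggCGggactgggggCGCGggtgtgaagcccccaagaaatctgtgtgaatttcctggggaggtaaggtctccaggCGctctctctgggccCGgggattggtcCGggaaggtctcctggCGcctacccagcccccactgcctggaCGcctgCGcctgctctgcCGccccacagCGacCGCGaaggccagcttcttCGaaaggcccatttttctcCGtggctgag
LINC00842: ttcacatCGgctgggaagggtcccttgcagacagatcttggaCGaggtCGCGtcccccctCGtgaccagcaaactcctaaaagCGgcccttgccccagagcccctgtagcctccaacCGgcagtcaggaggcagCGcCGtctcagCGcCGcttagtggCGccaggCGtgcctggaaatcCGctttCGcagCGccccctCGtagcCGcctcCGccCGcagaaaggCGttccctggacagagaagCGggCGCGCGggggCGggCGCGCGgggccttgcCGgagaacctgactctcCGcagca
LINC00312: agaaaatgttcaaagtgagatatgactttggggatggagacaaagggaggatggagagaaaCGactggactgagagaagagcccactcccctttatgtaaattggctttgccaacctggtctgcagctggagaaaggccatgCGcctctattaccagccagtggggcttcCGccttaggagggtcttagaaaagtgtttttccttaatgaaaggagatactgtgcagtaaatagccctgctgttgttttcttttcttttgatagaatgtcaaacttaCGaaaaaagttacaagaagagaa
LINC00887: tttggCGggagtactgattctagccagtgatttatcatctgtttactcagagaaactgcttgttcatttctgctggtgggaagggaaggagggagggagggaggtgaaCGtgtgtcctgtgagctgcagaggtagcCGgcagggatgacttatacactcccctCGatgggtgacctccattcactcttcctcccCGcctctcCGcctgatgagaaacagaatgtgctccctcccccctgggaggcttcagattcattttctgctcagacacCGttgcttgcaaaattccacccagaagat
The windows hold 18 CG dinucleotides in LINC00857 and 31 in LINC00842, and 4 in LINC00312 and 7 in LINC00887. The composition did not follow the line, since the windows of LINC00685 and LINC00472, both higher in HCC1395, hold 32 and 31.

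LINC00857, which published work describes as promoting growth of lung cancer cells, showed the largest difference. Its log2 signal was 7.22, 7.15 and 7.55 on the HCC1806 control arrays and 3.52, 3.90 and 3.84 on those of HCC1395. No value of one line came near the other, and the difference was 3.55 (standard error 0.16, adjusted p = 3.51e-11 from limma). For this and every other line-specific transcript the lower line was under the array median, so the value is a difference of signals and gives no exact ratio of RNA.

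LINC00842 was at 6.53, 6.64 and 6.58 in HCC1806 and at 3.70, 4.09 and 3.45 in HCC1395, a difference of 2.83 (standard error 0.26, adjusted p = 2.15e-07 from limma). All HCC1395 values were under the median of their array. LINC00842 lies in a part of chromosome 10 with near-identical copies, next to *ANXA8L1*, so its signal could include a copy of the locus.

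Among the others specific to HCC1806, LINC00470 had 4.98, 5.42 and 5.25 against 2.05, 2.32 and 2.96, with a difference of 2.78 (standard error 0.32). LINC00648 had 4.76, 4.60 and 5.0 against 2.27, 2.28 and 1.99, with a difference of 2.61 (standard error 0.16). LINC00221 had 5.79, 6.18 and 6.01 against 3.63, 3.40 and 4.06, with a difference of 2.30 (standard error 0.19). For each of them every HCC1806 value was above every HCC1395 value. LINC00520, described elsewhere in cancer cell migration, was the least even. It read 4.90, 5.91 and 4.32 in HCC1806 (SD 0.81, n = 3) and 2.55, 2.38 and 2.95 in HCC1395, and its difference of 2.42 carried a standard error of 0.45 (adjusted p = 0.000486 from limma). On the other HCC1806 arrays it read 5.98, 5.74 and 4.63 after GapmeR 1 and 5.79, 6.16 and 4.29 after GapmeR 2, so the array numbered 3 was the lowest in each of the groups.

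In HCC1395, LINC00312, reported as a growth-restraining transcript in nasopharyngeal carcinoma, was at 4.79, 4.77 and 5.11, and in HCC1806 at 1.90, 1.73 and 1.76. The difference was −3.09 (standard error 0.18, adjusted p = 1.34e-09 from limma). This rests on 1 of its transcript clusters. The other, dimmer one was at 2.29 in HCC1806 and 2.31 in HCC1395 and did not pass the test (difference −0.02, standard error 0.20, adjusted p = 0.961 from limma).

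LINC00887 was at 6.69, 6.55 and 6.70 in HCC1395 and 3.68, 3.59 and 3.59 in HCC1806, a difference of −3.03 (standard error 0.17, adjusted p = 5.49e-10 from limma). Its replicates were the most even of the line-specific transcripts in HCC1806, with an SD of 0.05 (n = 3). LINC00339, at 4.89, 4.90 and 4.76 against 3.11, 3.32 and 3.15, differed by −1.66 (standard error 0.18). The remaining transcripts specific to HCC1395 had smaller differences, −1.35 for LINC00968, −1.23 for LINC00685 and −1.12 for LINC00942, with standard errors of 0.19 to 0.24. A second transcript cluster of LINC00942, of nearly the same mean signal (4.43 against 4.47), differed by −1.88 (standard error 0.16), so the size for this gene depends on the probes. LINC00685 lies in the region shared by the X and Y chromosomes, and its pair of transcript clusters held identical values.

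**Figure D2:**
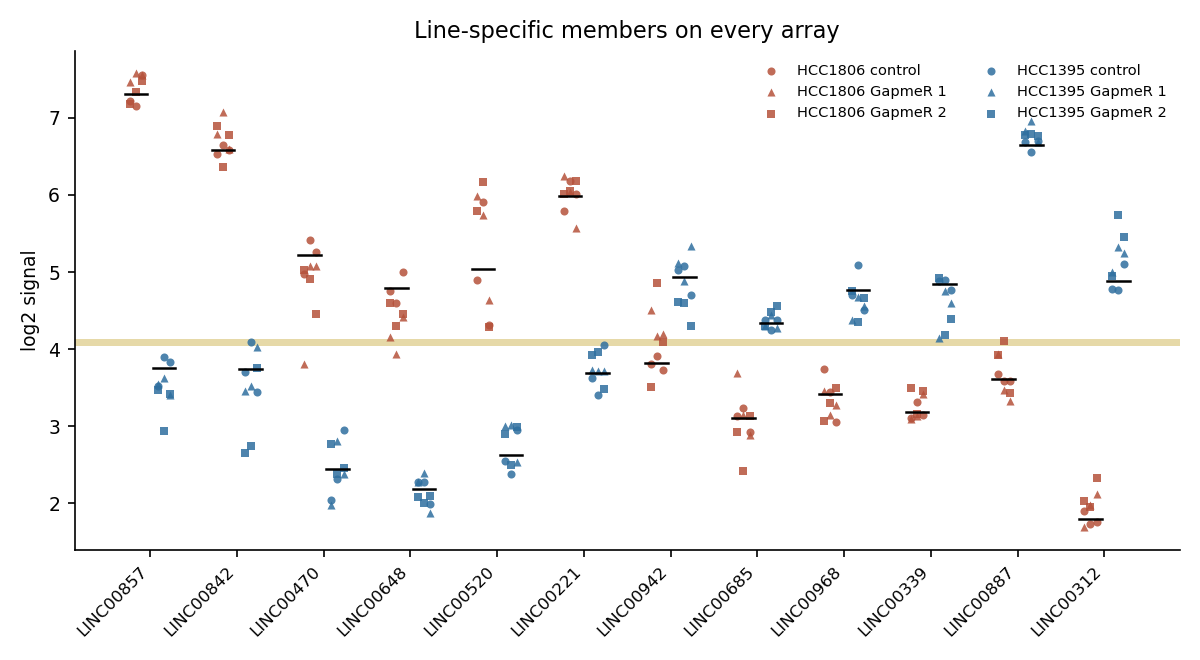
Log2 signal (y axis) of the 12 line-specific LINC00 transcripts (x axis) on each of the 18 arrays, with HCC1806 in red and HCC1395 in blue, circles for control, triangles for GapmeR 1 and squares for GapmeR 2. Black bars are control means (n = 3) and the band marks the array medians. The colours stay apart for every transcript but LINC00942, and LINC00520 spreads most within HCC1806.

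The difference between the lines was then looked at on the 12 GapmeR arrays, a comparison chosen after the values were seen. All 31 transcripts called on the control arrays kept the sign of their difference, as did 99.6% of all transcript clusters called there. Of the 31, 25 (80.6%) also passed both thresholds on the GapmeR arrays (limma), against 85.1% of all transcript clusters called on the controls, and 13.6% of the array passed. For 29 of the 31 the 6 GapmeR arrays of one line did not overlap the 6 of the other, and the share among all called transcript clusters was 92.2%. Over all 246 transcripts 54 (22.0%) did not overlap, beside 27.1% of the array. In this the LINC00 transcripts were close to the rest of the array. The exceptions were LINC00942 (3.51 to 4.85 in HCC1806 and 4.31 to 5.34 in HCC1395) and LINC00882 (2.70 to 3.28 and 3.08 to 3.77). Of the line-specific transcripts, LINC00942 was above the median on 4 of 6 HCC1806 GapmeR arrays and LINC00887 on 1 of 6, although neither was above it on an HCC1806 control array. LINC00470 and LINC00648, specific to HCC1806, were each above it on 5 of the 6 HCC1806 GapmeR arrays.

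Several transcripts that were not line-specific also differed. LINC00472, which breast cancer studies link to less aggressive tumours, was at 8.66, 8.75 and 8.79 in HCC1395 and 6.21, 6.65 and 5.69 in HCC1806. It was the brightest in HCC1395 after the transcripts with disagreeing transcript clusters and spread more widely in HCC1806 (difference −2.55, standard error 0.26, adjusted p = 8.83e-07 from limma). LINC00920 (−1.94, standard error 0.20) and LINC00997 (−1.85, standard error 0.17) were likewise higher in HCC1395, and LINC00839, named after its values were seen, was higher in HCC1806 (1.78, standard error 0.17), with control means of 6.82 and 5.05.

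Of 16 LINC00 transcripts with published roles, 10 were measured under a LINC00 symbol, 3 were above the median in each line and 6 differed between the lines, beside 45.9% and 46.0% of all transcript clusters above the median and 12.9% called. LINC00520 and LINC00518 were higher in HCC1806. Higher in HCC1395 were LINC00312, LINC00473 (a transcript induced by cAMP signalling, −1.22, standard error 0.22), LINC00460 (−1.01, standard error 0.21) and LINC00673 (−1.07, standard error 0.14). LINC00261, LINC00511, LINC00632 and LINC00052 did not pass, with differences of 0.14, 0.25, 0.66 and −0.21. Of 10 loci first catalogued as LINC00 and later linked to small proteins, LINC00467 alone was measured under such a symbol, at 5.92 in HCC1806 and 6.74 in HCC1395 control arrays, which is under 2-fold (−0.82, standard error 0.13). Among 14 other well-known lncRNAs, 9 were measured, 7 were above the median in each line, and 2, *CRNDE* (−1.58) and *PURPL* (2.86), were called, with the same background. Both lists hold transcripts chosen because they were known, and nothing is drawn from these shares.

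The genes beside the called transcripts were examined after the values were seen. For each LINC00 gene the nearest protein-coding gene with a platform symbol was taken from the order of genes in RefSeq GRCh38.p14. Of the 31 called transcripts, 13 had a neighbour that was itself called between the lines, and all 13 of these neighbours were higher in the same line as the transcript. Of all 11916 protein-coding genes, 20.5% were called. Over all 246 transcripts, 66 had a called neighbour, 43 in the direction of the transcript's own difference and 23 in the opposite one, with 213 distinct neighbours. The 23 opposite pairs were all among the 215 transcripts not called, where 30 other pairs ran in the same direction. Many differences of these transcripts are small and uncertain in sign, but not all. LINC00467 (−0.82, standard error 0.13) lay beside *TRAF5* (1.27), for example. Without the overlapping pair, 12 of 30 called transcripts had a called neighbour, all 12 in the same direction. The differences of transcript and neighbour correlated at r = 0.288 over the 246 and at r = 0.136 over the 215 not called. These values describe genes that share the same arrays and in part the same neighbour.

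The largest neighbour difference was that of *ANXA8L1*, an annexin, beside LINC00842. It was at 10.18 in HCC1806 and 5.01 in HCC1395, 5.17 apart. *SOX9*, a transcription factor of progenitor cells and the nearest gene to LINC00673, was at 7.03 and 10.77, 3.74 higher in HCC1395, while LINC00673 was at 5.32 and 6.40. *SOX9* was also the nearest gene to LINC00511, whose difference of 0.25 ran the other way and was not called. *LMCD1*, a LIM domain protein that overlaps LINC00312, was at 4.42 and 6.82. The neighbours of LINC00857 (*ANXA11*, 1.10), LINC00648 (*MDGA2*, 1.05), LINC00887 (*LRRC15*, −1.15) and LINC00472 (*OGFRL1*, −1.12) differed less than the transcripts did. Beside LINC00470, LINC00520 and LINC00221 the nearest genes *ADCYAP1*, *PELI2* and *TMEM121* had differences of −0.32, −0.03 and 0.10 and were not called. Whether a transcript and its neighbour share a regulator was not tested.

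**Figure D3:**
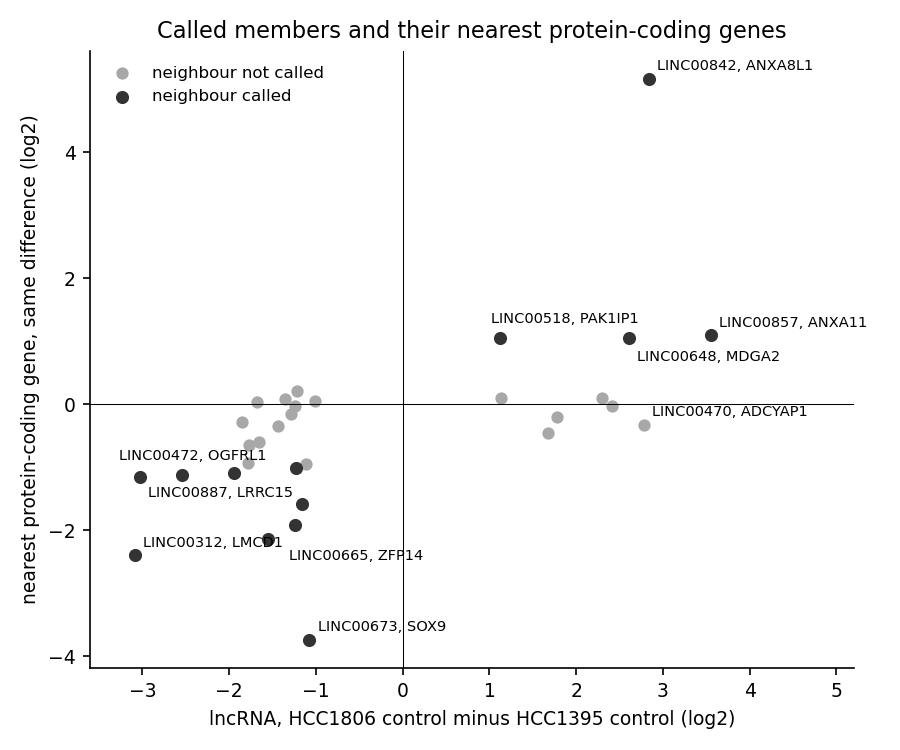
Difference between the control arrays of HCC1806 and HCC1395 (log2) for the 31 called LINC00 transcripts (x axis) and for the nearest protein-coding gene of each (y axis). Black points are the 13 pairs whose neighbour was also called, and all 13 fall in the lower left or the upper right of the plot.

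RefSeq promoter windows of 300 bases matched 178 of the 246 genes. A ratio of observed to expected CG dinucleotides of at least 0.6, as found at CpG islands, was met by 24.2% of these windows and by 49.0% of the 27305 promoters in the table. Among the genes above the array median in at least 1 line it was met by 25 of 52 (48.1%), and among those above it in neither line by 18 of 126 (14.3%). The GC box letters GGGCGG, read on both strands, were found in 48.1% and 16.7%, with 44.6% in all promoters, and any GC box holds a CG of its own. The TATA box letters TATAAA were found in 7.69% and 19.8%, with 11.95% in all promoters. The shares among genes above the median were close to those of all promoters for the CG ratio and the GC box, and those among the other genes were lower. LINC00842 (ratio 0.889) met the threshold, while LINC00857 (0.576), LINC00887 (0.337) and LINC00312 (0.292) did not. The windows were matched by gene and need not be the start used in these cells.

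The second comparison asked whether the LINC00 transcripts respond to each *PART1* GapmeR. In each line both GapmeRs were compared with the same 3 control arrays, so their results are not independent. No LINC00 transcript passed an adjusted p under 0.05 in any of the 4 comparisons (limma, smallest adjusted p 0.822 and 0.916 for GapmeR 1 and GapmeR 2 in HCC1806, and 0.886 and 0.660 in HCC1395), nor did any transcript cluster of the array. At an unadjusted p under 0.05 the counts were 13 and 12 of 246 in HCC1806, with 5.97% and 5.07% of the array at that level. In HCC1395 they were 10 and 18, with 5.39% and 6.73%. These shares, 5.28%, 4.88%, 4.07% and 7.32%, lay near the background.

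The differences themselves were small. They ran from −0.68 to 0.48 and from −0.58 to 0.57 for GapmeR 1 and GapmeR 2 in HCC1806, and from −0.49 to 0.41 and from −0.70 to 0.50 in HCC1395, with medians between −0.04 and 0.05. The 0.48 was that of LINC00942, whose other transcript cluster, of nearly the same mean signal, differed by −0.40 in that comparison. With GapmeR 2 in HCC1395 the pair gave −0.43 and 0.38, so the direction for this gene depends on the probes. The median standard error over the 246 transcripts was 0.17 in HCC1806 and 0.16 in HCC1395. For 192 and 194 of the 246 transcripts in HCC1806, and for 214 and 208 in HCC1395, the 95% interval lay wholly within 1.6-fold either way. Of the 62 above the median in the line, this held for 44 and 48 in HCC1806 and for 55 and 53 in HCC1395. For transcripts under the median, a narrow interval describes the signal and may miss a change in the RNA, and for those with wider intervals the arrays do not settle whether a change of that size occurred. The difference between GapmeR 1 and GapmeR 2 passed an unadjusted p under 0.05 for 14 transcripts in each line (background 5.9% in HCC1806 and 4.65% in HCC1395) and an adjusted one for none, with 0.00187% and 0% of the array past it (limma, smallest adjusted p 0.816 in HCC1806 and 0.9995 in HCC1395).

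**Figure D4:**
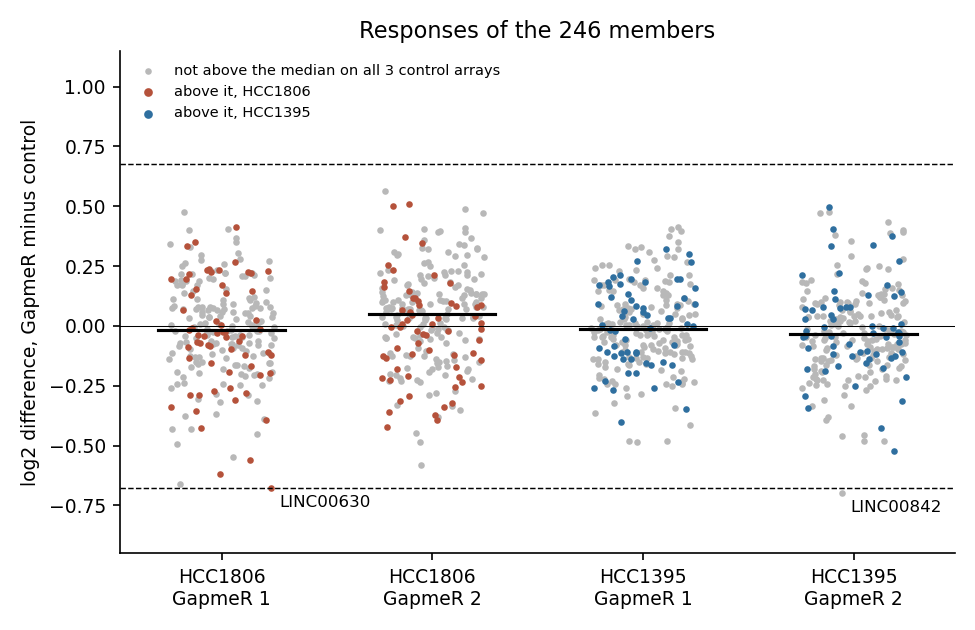
Log2 difference from the control arrays (y axis) for each of the 246 LINC00 transcripts with each GapmeR in each line (x axis). Coloured points were above the array median on all 3 control arrays of the line, bars are medians and dashed lines mark 1.6-fold. Points centre on 0, and only LINC00630 and LINC00842 reach a dashed line.

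The study counted a change of 1.6-fold at an unadjusted p under 0.05. By this threshold 1 transcript was lower and 0 were higher with GapmeR 1 in HCC1806, where 0.746% and 0.511% of the array passed. With GapmeR 2 the count was 0 in either direction (0.666% and 0.373%). In HCC1395 it was 0 with GapmeR 1 (0.334% lower and 0.621% higher), and with GapmeR 2 it was 1 lower and 0 higher (0.326% and 0.737%). The transcripts were LINC00630 in HCC1806 and LINC00842 in HCC1395. These counts take 1 transcript cluster per gene. The dimmer transcript cluster of LINC00312, not among them, was 0.72 higher with GapmeR 2 in HCC1395, which is over 1.6-fold. Its control mean there was 2.31, well under the array median. The transcript cluster that represents LINC00312 was 0.50 higher (standard error 0.20) and did not reach 1.6-fold.

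LINC00630, which the study also lists among its regulated transcripts, read 5.94, 6.22 and 5.98 in the HCC1806 controls. The arrays labelled GapmeR 1 gave 5.22, 5.22 and 5.66, those labelled GapmeR 2 5.95, 5.74 and 5.49. All GapmeR 1 arrays were under the controls, while the GapmeR 2 arrays reached up to them. The difference was −0.68 with GapmeR 1 (standard error 0.17, 95% interval −1.07 to −0.29, adjusted p = 0.822 from limma), just at 1.6-fold, and −0.32 with GapmeR 2 (standard error 0.17). Between the GapmeRs it differed by −0.36 (adjusted p = 0.834 from limma). In HCC1395 it was at 6.34, 6.46 and 6.52 in the controls and between 6.36 and 6.65 with either GapmeR, and the differences were 0.03 and 0.03 (standard error 0.12 each). The difference of the response between the lines, for the mean of both GapmeRs, was −0.53 (standard error 0.18, adjusted p = 0.669 from limma). The *PART1* signal in HCC1806 lay near or under the array median (control mean 3.84), where a fall of the RNA may be missed. Whether LINC00630 followed *PART1* was not tested.

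LINC00842 in HCC1395 read 3.70, 4.09 and 3.45 in the controls, 3.46, 3.52 and 4.03 after GapmeR 1 and 2.65, 2.74 and 3.76 after GapmeR 2. One GapmeR 2 array lay among the controls, and all 3 control values were under the median of their array. The difference was −0.70 (standard error 0.30, 95% interval −1.38 to −0.02, adjusted p = 0.734 from limma). In HCC1806, where LINC00842 is bright, the differences were 0.24 and 0.09 (standard error 0.17 each).

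Other responses in both directions, named here after their values were seen, did not reach the threshold. Among the highest were LINC00433 (0.57) and LINC00482 (0.51) with GapmeR 2 in HCC1806. With GapmeR 2 in HCC1395 they were LINC00312 (0.50) and LINC00597 (0.48). The lowest responses under the threshold were LINC00622 with GapmeR 1 in HCC1806 (−0.66, standard error 0.21) and, with GapmeR 2 there, LINC00858 (−0.58). Both were dim, at 2.90 to 3.63 and 3.5 to 3.73 on the HCC1806 control arrays. LINC00648, specific to HCC1806, was at 4.16, 3.94 and 4.41 with GapmeR 1, beside 4.76, 4.60 and 5.0 in the controls, a difference of −0.62 (standard error 0.17, adjusted p = 0.822 from limma). LINC00847, above the median in both lines, read 5.15, 5.33 and 5.36 in the HCC1395 controls, 5.14, 4.67 and 4.83 after GapmeR 1 and 4.84, 4.58 and 4.85 after GapmeR 2. GapmeR 1 gave a difference of −0.40 (adjusted p = 0.895 from limma) and GapmeR 2 one of −0.52 (adjusted p = 0.674), both with a standard error of 0.15, and in HCC1806 they were 0.17 and −0.04. All 6 GapmeR arrays of HCC1395 were below the lowest control, if only by 0.01 for 1 of them. How often this occurred among the other transcripts or over the array was not counted, so nothing is drawn from it. Its other, dimmer transcript cluster differed by −0.04 with GapmeR 2 in HCC1395.

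**Figure D5:**
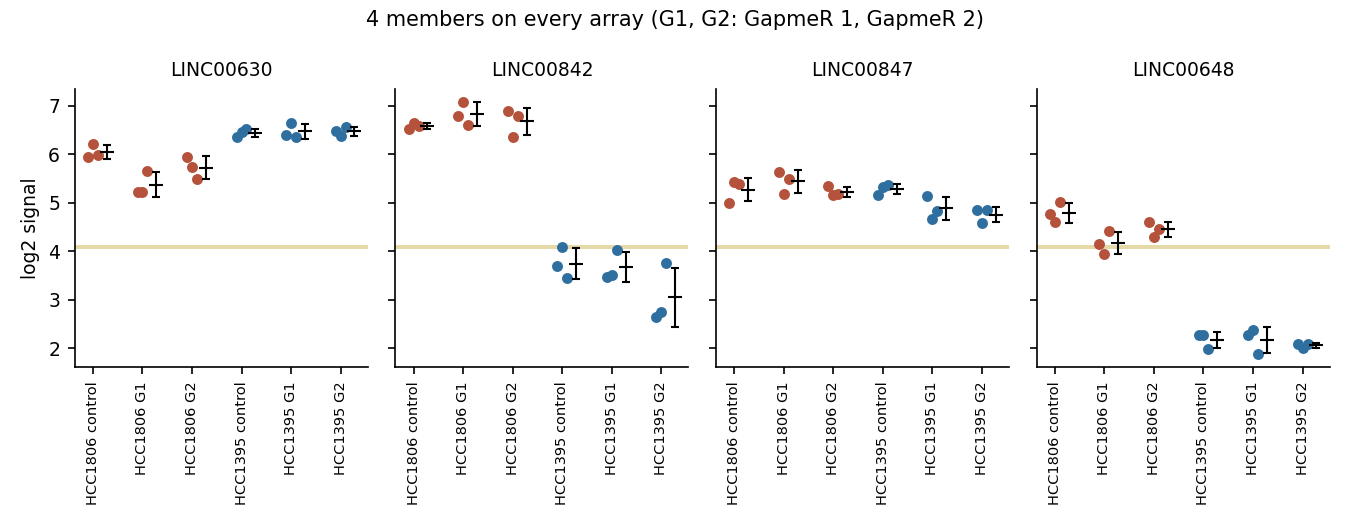
Log2 signal (y axis) of LINC00630, LINC00842, LINC00847 and LINC00648 on each of the 18 arrays by group (x axis, HCC1806 in red, HCC1395 in blue), with mean and SD beside the points (n = 3) and a band for the array medians. LINC00630 drops under its controls on the HCC1806 arrays labelled GapmeR 1, and LINC00842 spreads widely with GapmeR 2 in HCC1395.

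Whether the response differed between the lines was tested for the mean of both GapmeRs. Of 246 transcripts, 23 (9.35%) had an unadjusted p under 0.05, where 6.6% of the array did, and none passed an adjusted p under 0.05 (limma, smallest adjusted p 0.627). The smallest adjusted p belonged to LINC00882, whose responses were 0.12 and 0.37 in HCC1806 and −0.49 and −0.46 in HCC1395, a difference of 0.72 (standard error 0.22). It was at 2.56, 2.56 and 2.97 on the HCC1806 control arrays and at 4.15, 3.94 and 3.70 on those of HCC1395, so in HCC1806 it was compared at signals well under the array median. By the transcript cluster that represents each gene, none of the 10 transcripts with published roles, nor LINC00467, passed the response threshold in any comparison. Of the other well-known lncRNAs, *PURPL*, a p53-induced transcript, passed it in HCC1806, at −1.03 and −1.05 (standard error 0.33 each) on the arrays labelled GapmeR 1 and GapmeR 2.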

How the data were processed

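Log2 signals were deposited for 18 arrays of HCC1806 and HCC1395 cells, made by the authors with RMA in the Affymetrix Expression Console (version not given in the submitters' processing notes). The sources used here do not name the array's genome build. Platform annotation named 16098 of 53617 transcript clusters and left 37519 without a symbol. No normalization was added. GapmeR and control arrays were compared by lmFit and eBayes of limma 3.58.1 (R 4.3.3, two-sided) on the 9 arrays of a line, and the lines on all 18. P-values were adjusted by the Benjamini-Hochberg method over every transcript cluster. Precision is limited by the number of arrays. The fits were tested on simulated data. Figures used Python 3.11.15 and matplotlib 3.10.9.

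Named transcripts are the line-specific ones, the 5 largest line differences in each direction, the 6 with the highest signals in each line, those past the response threshold, those the study lists, those in the role lists and the 3 with most discordant transcript clusters. Members and lists were chosen with earlier results of these data known. Of the transcripts the study lists, only LINC00630 carries a LINC00 symbol on the platform. Promoter windows and neighbours came from RefSeq GRCh38.p14 and were examined after the values were seen. Alternatives covered normalization, the reference median, the variance model, filters, fold, the replicate number and each array left out.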

Additional observations from a re-analysis of the deposited data

How the results depend on the processing

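The counts above the array median, 62 in each line, fell to 21 in HCC1806 and 29 in HCC1395 when the median of the transcript clusters with a symbol was the reference. The response count of 1 with GapmeR 1 in HCC1806 became 0 under a second quantile normalization, with arrays centred on their medians and at 2-fold. The count of 1 with GapmeR 2 in HCC1395 became 0 with an ordinary ANOVA p and at 2-fold. The cause of these shifts was not tested. No named difference changed sign under any alternative run. The other 87 counts under these alternatives stayed within 1.5 times. By the rule used, replicate numbers were not taken to pair the arrays, which does not show that the cultures were unpaired. Deviations of same-numbered arrays correlated between −0.00696 and 0.0928 in HCC1806 and between −0.0025 and 0.111 in HCC1395 and so were not all over 0.1. Their medians were 0.0664 and 0.0375, and those of differently numbered arrays −0.0251 and −0.016. With the replicate number as a block the response counts remained 1, 0, 0 and 1, the line difference 31 and the line-specific count 12.

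With each array left out in turn, line-specific counts ran from 12 to 14 and the line difference from 30 to 35. Counts above the median ran from 63 to 65 in each line. They could only stay at 62 or rise, because 1 control array fewer had to pass. The GapmeR 1 count in HCC1806 ran from 0 (without GapmeR 1 replicate 1) to 3 (without control replicate 2 or GapmeR 1 replicate 3) and was 2 without control replicate 1 or 3. The GapmeR 2 count there ran from 0 to 1, the latter without control replicate 2. In HCC1395 the GapmeR 2 count ran from 0 to 1, and was 0 without control replicate 1 or 2, GapmeR 1 replicate 1 or 2, or GapmeR 2 replicate 2. LINC00630 ran from −0.83 to −0.59 and kept p under 0.05 in 9 of 9, but fell under 1.6-fold in 3, at −0.59 without control replicate 2, −0.60 without GapmeR 1 replicate 1 and −0.61 without GapmeR 1 replicate 2. LINC00842 in HCC1395 ran from −1.05 to −0.50 and kept it in 3 of 9. Adjusted counts of responses, of GapmeR 1 against GapmeR 2 and of the response between the lines stayed at 0. Signals under the array median limit what a response of those transcripts can show.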
